A study of Mus musculus with 18 samples.

Results

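The genes described here are the neuropilins Nrp1 and Nrp2, the growth factor Vegfa, its receptors Kdr and Flt1, the angiopoietin receptor Tek and the endothelial genes Pecam1, Stab2 and Lyve1, measured in the liver of control and hypothyroid juvenile mice. They are 9 genes of the 16535 that carried a symbol on the array, and every array probe matched to one of the 9 by its accession was taken, which gave 14 probes of 41174. The set was chosen by the array values of Nrp1, which were lower in hypothyroid liver, so the difference of Nrp1 between the groups is given below as a description without a test. The other 8 genes were added for what they are known to do, with earlier results of these data known.

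All mice were C57BL/6 male pups of PND 15 (postnatal day 15), taken 1 from each litter. In the hypothyroid group the dam and litter drank sugar water with 0.05% methimazole (MMI) and 1% perchlorate from PND 12. Both agents block the making of thyroid hormone. Control litters drank sugar water alone, and per the study's methods pups of both groups received an injection of phosphate-buffered saline on the day of sacrifice, so the control animals were injected too. Because the drug went to the dam, each pup's own intake is not known, and the treatment differs from the control by both agents as well as by the loss of hormone. Messenger RNA was measured in 5 control and 5 hypothyroid livers, each hybridised on its own 2-colour array against a commercial pool of mouse RNA, and miRNAs were measured by quantitative PCR on TaqMan low density arrays (TLDA) in 4 control and 4 hypothyroid livers.

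Vascular endothelial growth factor A, the product of Vegfa, is made by hepatocytes and other cells and acts on the neighbouring endothelium. Kdr (VEGF receptor 2) carries most of its signal, Flt1 (VEGF receptor 1) binds it tightly and acts largely as a trap, and neuropilins are coreceptors that bind particular VEGF forms and also class 3 semaphorins, for which they pair with plexins. The sinusoids of the liver are lined by a fenestrated endothelium that clears waste molecules from blood through scavenger receptors such as Stab2, and it carries Lyve1, which elsewhere marks lymphatic vessels.

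A value below is log2 of liver signal over reference signal on 1 array unless another scale is named, so 0 means equal signal in the liver and in the reference pool. The liver channel was well above background for all 14 probes on all 10 arrays and no spot was saturated. All 14 probes passed the filter on dim probes, as did 32056 probes in all, and passing required signal in 4 of 5 arrays of either group, not a difference. Whole livers were used, so fewer cells of a type and less RNA per cell cannot be told apart.

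Several arrays stood apart. The labels and methods put liver in Cy5 on every array, yet on the slide that held control 832 and hypothyroid 576 the log ratios ran against those of the other slides, with correlations of -0.97 and -0.98 over all probes. The ratios of those 2 arrays were turned. Because this goes against the labels and methods, values with the dyes as labelled and without that slide are given beside the main ones. On control 616 the ratios lay closer to 0 than on the others, with an SD over all probes of 0.73 against 1.01 or more on each of the other 9 arrays and a correlation with the other slides of 0.88, so results are also given without it. The 8 acinar (exocrine pancreas) markers tested had a mean of 3.41, 3.55 and 1.94 in control 832, 522 and 616 and lay between 0.57 and 0.75 in the other 7 livers. The part of these features in the results was not tested.

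Nrp1, the coreceptor that gave rise to the set, was lower in hypothyroid liver at 1 of its 2 probes more clearly than at the other. At the first probe (A_52_P371237, called probe 1) the control livers read 0.77, 1.19, 1.08, 0.18 and 1.03 for animals 881, 832, 522, 616 and 391. The hypothyroid livers read 0.25, 0.20, -0.05, -0.04 and -0.03 for animals 891, 576, 311, 723 and 626. Control liver therefore held more Nrp1 signal than the reference pool while hypothyroid liver was close to it, and control 616 was the 1 control that lay among the hypothyroid values. The means were 0.85 ± 0.41 (SD, n = 5) and 0.07 ± 0.14 (SD, n = 5), which made the control level 1.72-fold the hypothyroid level, a log2 difference of -0.78.

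In 3 of 5 hypothyroid livers probe 1 was below every control. Without control 616 the difference was -0.95 and the groups did not overlap, the lowest control being 0.77 and the highest hypothyroid value 0.25. Among all probes tested, 2.07% had groups that did not overlap on the 10 arrays and 2.9% without control 616. These values chose the gene and support nothing further. On the 4 slides that held both a control and a hypothyroid liver, the hypothyroid value was lower on 4 of 4, by between -1.13 and -0.20. The difference was -0.73 without the slide of control 832 and hypothyroid 576 and -0.39 with the dyes as labelled.

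The second Nrp1 probe (A_51_P469285, probe 2) read 0.10, 0.54, 0.25, 0.02 and 0.46 in control livers 881, 832, 522, 616 and 391. It read -0.13, -0.05, 0.41, -0.00 and 0.04 in hypothyroid livers 891, 576, 311, 723 and 626. The groups overlapped, with hypothyroid 311 above 3 of the controls. The means were 0.27 ± 0.22 and 0.05 ± 0.21 (SD, n = 5 each), a difference of -0.22, and within slides it was lower in hypothyroid liver on 2 and higher on 2. With the dyes as labelled the difference of probe 2 was 0.02. The 2 probes had the same sign of difference in the main analysis but not the same size, and across the 10 arrays they correlated at 0.62.

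**Figure D1:**
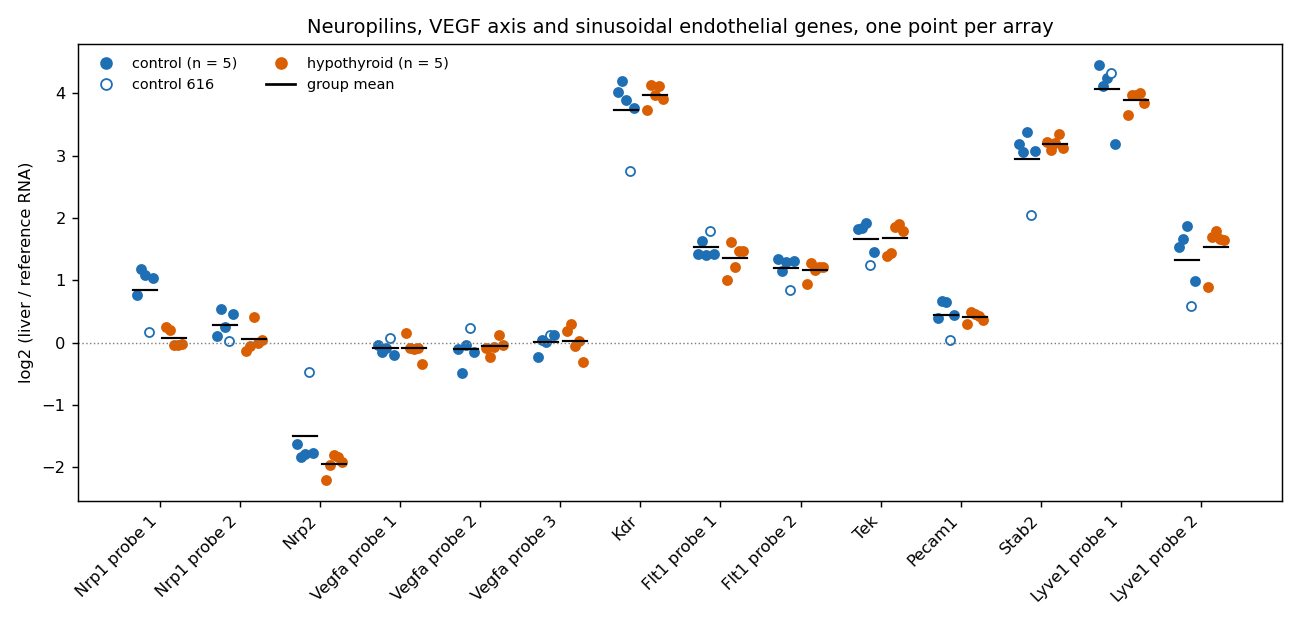
Each point is 1 array and the y axis is log2 of liver over reference signal, for the 14 probes of the 9 genes; blue points are control livers, orange points hypothyroid livers, the open blue point is control 616 and the black bar is the group mean. Nrp1 probe 1 has 4 control points between 0.77 and 1.19 and hypothyroid points between -0.05 and 0.25, whereas at the other probes the groups overlap or control 616 alone stands away.

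Nrp2, the second neuropilin, was lower in liver than in the reference pool in both groups. The control values were -1.63, -1.84, -1.79, -0.47 and -1.77 and the hypothyroid values were -2.20, -1.97, -1.81, -1.84 and -1.93, in the same animal order. Control 616 stood far above the other controls, and the remaining 4 controls lay between -1.84 and -1.63. The difference was -0.45 (SE 0.23), which did not pass limma's test (adjusted p = 0.712 over all probes), and its 95% interval ran from -0.96 to 0.07. Without control 616 it was -0.19 (limma adjusted p = 0.687). The hypothyroid value was lower on 4 of 4 slides, by between -1.45 and -0.02, and the largest of these was on the slide of control 616.

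The ligand Vegfa was close to the reference level in both groups at all 3 of its probes. Probe 1, printed as 10 spots on each array, read -0.04, -0.15, -0.09, 0.08 and -0.21 in control livers and 0.15, -0.09, -0.10, -0.08 and -0.35 in hypothyroid livers. The SD of its spots within an array was 0.03 to 0.06, which is less than the SD between livers of 0.11 in controls and 0.18 in hypothyroid animals. The difference was -0.01 (SE 0.09, 95% interval -0.22 to 0.19, limma adjusted p = 0.983). At probes 2 and 3 it was 0.05 (SE 0.12) and 0.02 (SE 0.12), with limma adjusted p of 0.935 and 0.981, and the sign at each of the 3 probes turned under some alternative settings.

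Kdr, the main signalling receptor, was higher in liver than in the reference pool in both groups. Control livers read 4.03, 4.21, 3.89, 2.76 and 3.77 and hypothyroid livers 3.74, 4.13, 3.97, 4.13 and 3.90. The 5 hypothyroid values fell inside the control range, and control 616 was the lowest of the 10. The difference was 0.24 (SE 0.23, 95% interval -0.27 to 0.75, limma adjusted p = 0.803), and without control 616 it was 0.00 (95% interval -0.23 to 0.23).

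Flt1, the decoy-like receptor, was measured by 2 probes. Probe 1 read 1.42, 1.63, 1.41, 1.78 and 1.42 in control livers and 1.00, 1.62, 1.21, 1.48 and 1.48 in hypothyroid livers. The 2 lowest values were hypothyroid livers, 891 and 311, and the rest were mixed. The difference was -0.18 (SE 0.12, limma adjusted p = 0.750) and it was lower on 4 of 4 slides, by between -0.42 and -0.01. Probe 2 differed by -0.03 (SE 0.10, limma adjusted p = 0.959), lower on 2 slides and higher on 2. Centring each array on its median in place of loess turned both signs, to 0.03 and 0.14.

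Tek (Tie2), the endothelial receptor of the angiopoietins, read 1.82, 1.85, 1.92, 1.24 and 1.45 in control livers and 1.38, 1.44, 1.86, 1.91 and 1.80 in hypothyroid livers. The spread within each group was larger than the distance between the means, and the difference was 0.02 (SE 0.15, 95% interval -0.32 to 0.36, limma adjusted p = 0.983). Its sign was not stable, since it was -0.08 without control 616.

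**Figure D2:**
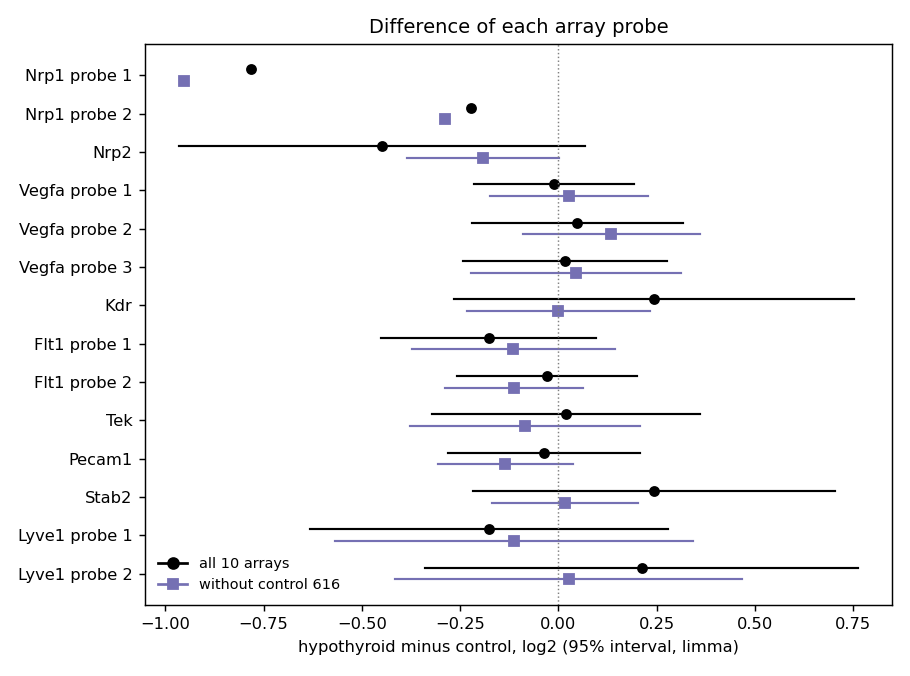
The x axis is the hypothyroid minus control difference in log2 units for each probe, black circles with all 10 arrays and violet squares without control 616; lines are 95% intervals from limma and none is drawn for Nrp1, whose difference chose the set. All intervals drawn include 0, and leaving out control 616 moves Kdr from 0.24 to 0.00, Stab2 from 0.24 to 0.02 and Nrp2 from -0.45 to -0.19.

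Pecam1 (CD31), an adhesion molecule of all endothelium, read 0.40, 0.67, 0.65, 0.05 and 0.44 in control livers and 0.29, 0.49, 0.45, 0.43 and 0.37 in hypothyroid livers. The hypothyroid values were tightly grouped within the control range. The difference was -0.04 (SE 0.11, limma adjusted p = 0.949). Without control 616 it was -0.13 (SE 0.08, limma adjusted p = 0.793).

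Stab2, the hyaluronan scavenger receptor of sinusoidal endothelium, read 3.19, 3.06, 3.39, 2.05 and 3.08 in control livers and 3.22, 3.09, 3.21, 3.34 and 3.12 in hypothyroid livers. Apart from control 616 the 9 values lay between 3.06 and 3.39. The difference was 0.24 (SE 0.21, limma adjusted p = 0.785) and without control 616 it was 0.02 (95% interval -0.17 to 0.20).

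Lyve1, a hyaluronan receptor, gave 2 probes that did not agree in the sign of their difference. Probe 1 read 4.46, 4.12, 4.25, 4.33 and 3.20 in control livers and 3.66, 3.98, 3.98, 4.01 and 3.85 in hypothyroid livers. Control 391 was the lowest of all, and the other 4 controls were above all 5 hypothyroid livers. The difference was -0.18 (SE 0.21, limma adjusted p = 0.839), and without control 391 it was -0.40 (limma adjusted p = 0.388). The hypothyroid value was lower on 4 of 4 slides, by between -0.80 and -0.14, and with slide as a fixed block the difference was -0.42 (unadjusted p = 0.0163, limma adjusted p = 0.695). Median centring turned its sign, to 0.03, as did Agilent's processed signals, to 0.06. Probe 2 differed by 0.21 (SE 0.25, limma adjusted p = 0.841), and by 0.03 without control 616.

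In all, no probe of the 8 genes other than Nrp1 passed an adjusted p of 0.05 in the main analysis, and 0 of those 12 probes had an unadjusted p below 0.05. Across the array, 3 probes (0.00936%) passed the adjusted threshold and 7.47% of probes had an unadjusted p below 0.05. Without control 616, 30 probes (0.0922%) passed the adjusted threshold. The table-wide median difference was -0.01. With 5 livers in a group the intervals were wide, such as -0.27 to 0.75 for Kdr, and a p that misses the threshold does not show that the levels were equal.

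**Figure D3:**
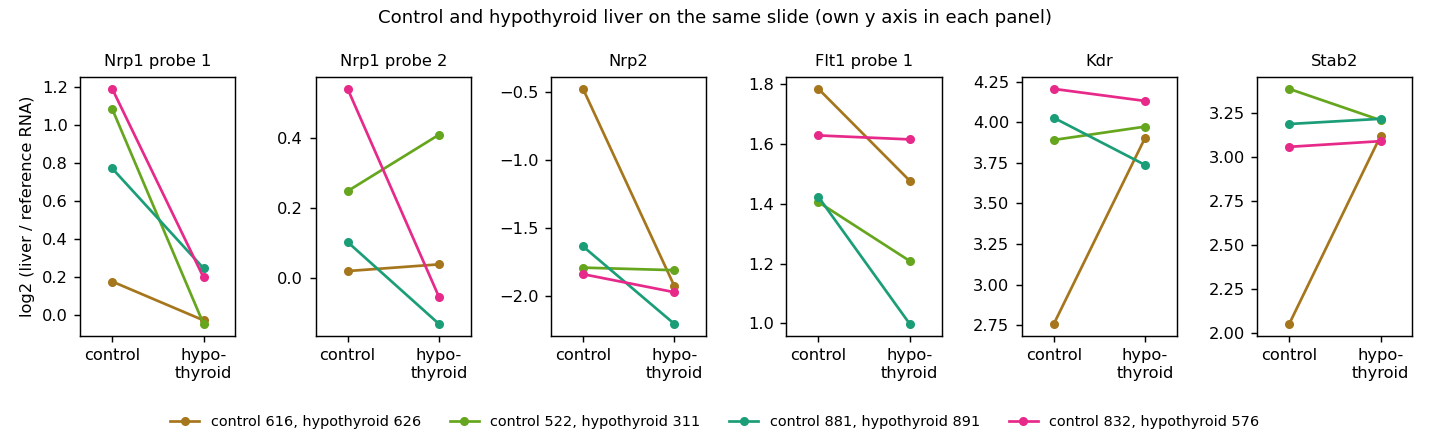
Each line joins the control and the hypothyroid liver hybridised on the same slide, with log2 of liver over reference signal on the y axis and a separate axis in each panel. Of the panels shown, Nrp1 probe 1, Nrp2 and Flt1 probe 1 slope down on 4 of 4 slides, as does Lyve1 probe 1, which is not drawn. How many of all probes do so was not counted. Kdr and Stab2 slope up by 1.15 and 1.07 on the slide of control 616 and differ by between -0.29 and 0.08 and between -0.18 and 0.03 on the other 3 slides.

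The genes other than Nrp1 can also be read against the reference pool, a comparison that the choice of the set did not use for them. In control liver 9 of their 12 probes differed from the pool in limma's test at an adjusted p of 0.05, 8 higher and Nrp2 lower, where 36.2% of all probes were called higher in liver and 33.5% lower. The control mean was 4.07 for Lyve1 probe 1 (16.8-fold), 3.73 for Kdr (13.3-fold) and 2.95 for Stab2 (7.74-fold), 1.53 and 1.19 for the Flt1 probes and 0.44 for Pecam1. The 3 Vegfa probes lay between -0.11 and 0.01 and were not called, but Vegfa probe 2 was called lower without control 616, at -0.19 (limma adjusted p = 0.0388), and Vegfa probes 1 and 2 with Agilent's processed signals, at -0.24 and -0.30 (limma adjusted p = 0.0197 and 0.0160). Stab2 and both Lyve1 probes, which mark the sinusoidal lining, had liver signal well above background in all 10 livers. The reference signal of Lyve1 probe 1 was well above background on 4 of 5 control and 3 of 5 hypothyroid arrays. On the other arrays its ratio rests on a reference that was not well above background. The ratios depend on the pool as well as on the liver. The pool is 1 RNA, so limma's test here takes in the spread between arrays but none of the pool itself. Apart from the turned arrays liver was in the same dye throughout, so a dye effect of a single probe was not separated from its difference to the pool. In the reference channel Tek was well above background on 1 of 5 control arrays and on no hypothyroid array, and Lyve1 probe 2 on none, so the control mean of Tek, 1.66, rests on a reference measured on 1 array, the level of Tek in hypothyroid liver was at least 3.17-fold that of the pool and Lyve1 probe 2 at least 2.51-fold in control and at least 2.90-fold in hypothyroid liver. With processed signals the control means were 4.72 for Tek, 4.18 for Lyve1 probe 2, 6.11 for Lyve1 probe 1, 4.46 for Kdr and 3.10 for Stab2. With the dyes as labelled on the slide of control 832, none of the 12 probes passed, with 1 control array then running against the other 4.

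The other genes of the VEGF and angiopoietin systems were taken from fixed lists, which were drawn up with earlier results of these data known. The VEGF family list held the ligands Vegfb, Vegfc, Vegfd and Pgf and the lymphatic receptor Flt4, and 0 of 5 had an unadjusted p below 0.05. Their differences were -0.06, -0.07, 0.01, -0.06 and -0.02 in that order, with a median of -0.06. Without control 616 Vegfb and Vegfd were 0.18 and 0.20, again short of the threshold. The angiopoietin list held the Tek ligands Angpt1, Angpt2 and Angpt4, the orphan receptor Tie1 and the phosphatase Ptprb, and 0 of 5 had an unadjusted p below 0.05. Angpt2, the context-dependent antagonist of Tek, had the widest difference of these at -0.25 (SE 0.14, limma adjusted p = 0.717) and -0.13 without control 616, and Angpt1, Angpt4, Tie1 and Ptprb differed by -0.05, 0.01, 0.09 and -0.03.

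Semaphorins and plexins, the other partners of neuropilins, were tested for 9 genes of 13 listed, since Sema3g and Plxnd1 had no probe by accession and Sema3c and Plxna4 were too dim. The list median was -0.06 and 1 of 9, Sema3f, had an unadjusted p below 0.05, at -0.19 (SE 0.08, limma adjusted p = 0.653). Of all probes tested, 7.47% had an unadjusted p below 0.05. Sema3f is a class 3 semaphorin that binds Nrp2, and it is named here after its value was seen. The 3 genes brightest in liver were Plxna2, Gipc1, which binds the neuropilin tail, and Plxna1, with differences of 0.20, -0.01 and 0.28, and none passed. Without control 616, 0 of 9 had an unadjusted p below 0.05.

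In the hypoxia pathway, which controls Vegfa transcription, 1 of 7 genes had an unadjusted p below 0.05, against 7.47% of all probes. That gene was Egln3, a prolyl hydroxylase that marks hypoxia-inducible factors for decay and is itself one of their targets. Its control mean was -1.57 ± 0.33 and it was higher in hypothyroid liver by 0.69 (SE 0.16, limma adjusted p = 0.285). Without control 616 it was higher by 0.81 (limma adjusted p = 0.0617) and the groups did not overlap, as in 2.9% of all probes. The factor subunits Hif1a and Epas1 differed by -0.11 and 0.16, and Egln2 and Egln1, the brightest of the list beside Egln3, by 0.21 and -0.24, without passing.

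Sinusoidal endothelial markers beyond Stab2 and Lyve1 were taken from a list of 15 genes, all tested. The median difference was 0.01, 1 of 15 had an unadjusted p below 0.05, against 7.47% of all probes, and none passed the adjusted threshold. The 3 brightest, Ehd3, Clec4g and Gpr182, differed by -0.05, -0.05 and 0.07. The gene with the low p was Fcgr2b, the inhibitory Fc receptor through which sinusoidal endothelium takes up immune complexes. At the brightest of its 3 probes, the only one read here, it was 1.59 ± 0.14 in controls. It was lower in hypothyroid liver by -0.45 (SE 0.09, limma adjusted p = 0.177), with groups that did not overlap, as in 2.07% of all probes. Without control 616 the difference was -0.44 (limma adjusted p = 0.141).

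Leaving out control 616 altered this list. The median became -0.12 where that of all probes was -0.00, and 4 of 15 genes had an unadjusted p below 0.05, all lower in hypothyroid liver. Of all probes 7.33% were below it in either direction, and 1270 of 32547 were below it and lower. The 4 genes were Fcgr2b, Oit3 at -0.36, Clec4g, a lectin, at -0.23 and the orphan receptor Gpr182 at -0.18, and none passed an adjusted p of 0.05. The mean level of the 15 genes lay between 2.28 and 2.58 in the controls other than 616, was 1.96 in control 616, and lay between 2.26 and 2.39 in the 5 hypothyroid livers.

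The pan-endothelial list moved the same way in count. With all arrays the median of its 19 genes was -0.03 and 1 of 19, the transcription factor Sox7, had an unadjusted p below 0.05, at -0.36 (SE 0.08, limma adjusted p = 0.245), with groups that did not overlap. Over all probes the shares were 7.47% below 0.05 and 2.07% without overlap. Without control 616 the median was -0.14 and 4 of 19 were below 0.05, again none past the adjusted threshold. These were Sox7, Cd34 at -0.32, Icam2 at -0.29 and Plvap, a protein of endothelial diaphragms, at -0.27. Of all probes, 1270 of 32547 were below 0.05 and lower, and 7.33% were below it in either direction. The 3 brightest of the list were Mmrn2, Egfl7 and Robo4, with differences of 0.07, 0.28 and 0.02. The mean level of the 19 genes lay between 1.70 and 2.12 in the 5 control livers and between 1.81 and 1.97 in the 5 hypothyroid livers.

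**Figure D4:**
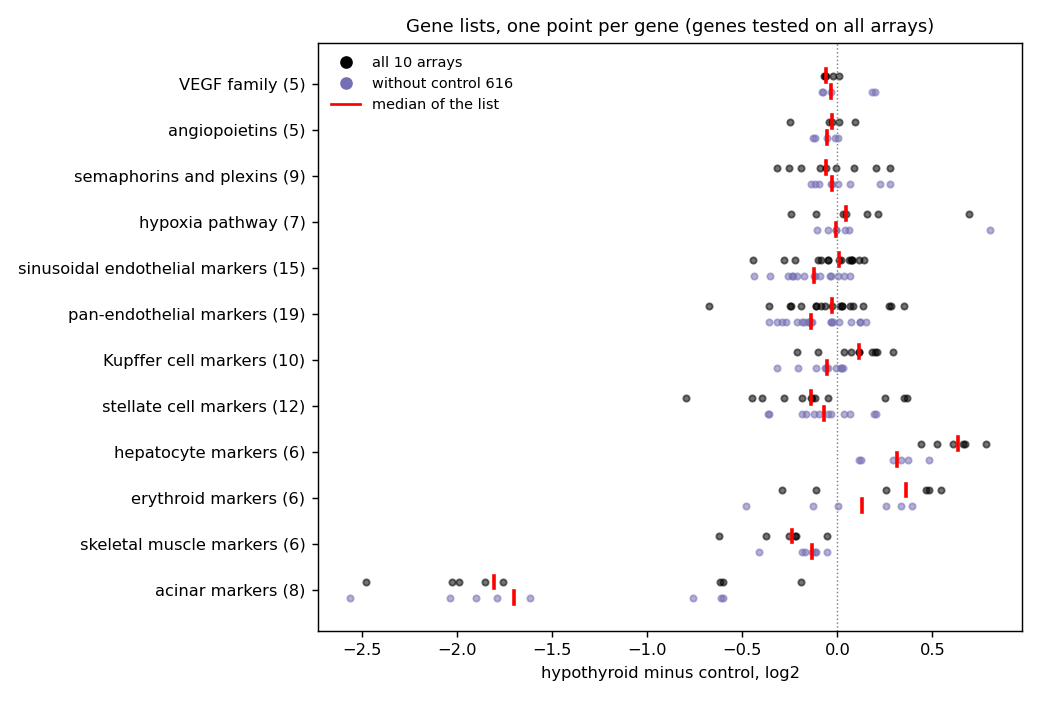
Each point is 1 gene and the x axis is its hypothyroid minus control difference in log2 units, in black with all 10 arrays and in violet without control 616, with the median of each list as a red bar and the number of genes tested on all arrays in parentheses. The sinusoidal and pan-endothelial medians move from 0.01 and -0.03 to -0.12 and -0.14 without control 616, and the acinar list lies apart at -1.81.

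Markers of the other liver cells were set beside these. Over all probes 7.47% had an unadjusted p below 0.05, and 7.33% without control 616. Of 10 Kupffer cell markers 0 had an unadjusted p below 0.05 (median 0.11), the brightest being Cd5l, Marco and C1qc at 0.20, 0.21 and 0.12. Of 12 stellate cell markers 1 did, Reln, higher by 0.36 (median of the list -0.14), and the brightest were Col3a1, Dcn and Colec11 at -0.40, -0.14 and 0.35. Hepatocyte markers had a median of 0.64 with 2 of 6 below 0.05, Alb and Tat, and the brightest were Alb, Fgb and Apoa1 at 0.66, 0.78 and 0.67. Without control 616 the hepatocyte median was 0.32. Erythroid markers had a median of 0.36 with 2 of 6 below 0.05, Tfrc and Klf1, and the brightest were Hba-a1, Alas2 and Tfrc at 0.55, 0.26 and 0.47. None of these passed the adjusted threshold. Without control 616 the median was -0.05 for the Kupffer list, where 7 of 10 genes were lower and 1 had an unadjusted p below 0.05, 0.13 for the erythroid list and -0.07 for the stellate list, where 0 of 12 were below 0.05.

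Markers of tissue from outside the liver were also counted, and none passed the adjusted threshold. The share of all probes with an unadjusted p below 0.05 was 7.47%. Of 8 acinar markers 6 had an unadjusted p below 0.05, all lower, with a median of -1.81 and with Amy2a5, Ctrb1 and Cel as the brightest at -0.19, -0.60 and -1.86. Without control 616, 8 of 8 acinar markers were below 0.05 and lower, with a median of -1.70, where 7.33% of all probes were below 0.05. Of 6 skeletal muscle markers 2, Acta1 and Mylpf, were below 0.05 and lower, with a median of -0.24 and with Tnni2, Acta1 and Actn3 as the brightest at -0.22, -0.62 and -0.38, and without control 616 the median was -0.13. In control 881, 832, 522, 616 and 391 the acinar means were 0.75, 3.41, 3.55, 1.94 and 0.74, against 0.57 to 0.69 in hypothyroid liver. Nrp1 probe 1 read 0.77, 1.19, 1.08, 0.18 and 1.03 in the same control livers. Whether the acinar signal has a part in the Nrp1 difference was not tested.

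Across the 10 arrays the genes whose profile was most like that of Nrp1 probe 1, of 14437 genes with values on all arrays, were Tlcd2, Csrp3, Ggct, Trarg1 and Slc25a45, with Pearson correlations of 0.95, 0.95, 0.94, 0.94 and 0.91. Part of this likeness is the shared difference between the groups, and after each group was centred on its own mean the correlations were 0.88, 0.84, 0.87, 0.82 and 0.75. Csrp3, a muscle LIM protein, differed between the groups by -1.01, Tlcd2 by -0.65, Ggct, a gamma-glutamylcyclotransferase, by -0.57 and Slc25a45, a mitochondrial carrier, by -0.60. Trarg1 differed by only -0.09 around a control level of 0.09. Among the other members the correlation with Nrp1 probe 1 was 0.57 for Pecam1 and lay between -0.11 and 0.18 for the remaining 7. After centring it was 0.84 for Pecam1, 0.80 for Stab2, 0.79 for Kdr and -0.96 for Nrp2, and lay between -0.42 and 0.32 for the remaining 4. Without control 616 the centred values were 0.41, -0.22, -0.06 and -0.85 for those 4 genes and 0.36 to 0.89 for the 5 genes most like Nrp1. The points share their slides and the reference pool, and control 616 is among them.

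The miRNA measurements gave a readout of endothelium in 8 livers, by an assay whose values the choice of genes did not use. The paper describes the mRNA arrays as run on livers of the same mice, so the animals may overlap. miR-126 is the abundant endothelial miRNA, and it is cut from an intron of Egfl7, a gene for a secreted endothelial protein that is on the pan-endothelial list above. The RefSeq hairpin, on GRCm38.p6 at chr2:26591357-26591429 (plus strand), lies inside the annotated span of Egfl7, and is shown with the miR-126a-3p arm in capitals, followed by that arm with its seed, bases 2 to 8, in capitals. The arm lies at chr2:26591402-26591423, its seed is shared by no other mature miRNA in the RefSeq table, and the other arm is miR-126a-5p.
Mir126a hairpin: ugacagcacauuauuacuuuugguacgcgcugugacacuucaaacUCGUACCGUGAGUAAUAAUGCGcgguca
miR-126a-3p: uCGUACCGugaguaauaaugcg

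Both arms were abundant, since miR-126-3p and miR-126-5p ranked 2 and 6 of the assays by lowest mean cycle threshold in control liver. On the scale of minus delta Ct, which is log2 abundance relative to the U6 RNA, miR-126-3p read -0.91, -0.70, -0.58 and -0.73 in control animals 1 to 4. It read -0.48, -0.87, -0.30 and -0.37 in hypothyroid animals 1 to 4. Of the hypothyroid livers 3 were above all controls and 1 was within the control range. The difference was 0.23 (1.17-fold, SE 0.23, 95% interval -0.30 to 0.75, limma adjusted p = 0.690), with a two-sided exact permutation p of 0.171 over 70 assignments, the smallest such p being 0.0286.

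miR-126-5p read -2.86, -2.93, -1.66 and -2.36 in control animals and -2.00, -2.49, -0.74 and -1.20 in hypothyroid animals. The groups overlapped, with 2 hypothyroid livers above all controls. The difference was 0.85 (1.80-fold, SE 0.47, 95% interval -0.24 to 1.94, limma adjusted p = 0.690), with a two-sided exact permutation p of 0.143. The labels split the PCR arrays into study 1 and study 2, within which the difference was 0.65 and 1.04 for this arm and 0.13 and 0.32 for miR-126-3p. The intervals and p-values above do not take this split into account. Within each study both hypothyroid livers were above both controls for miR-126-5p, and for miR-126-3p in study 2 only. Over the alternative settings, study as a block among them, the lowest limma adjusted p was 0.554 for miR-126-5p and 0.654 for miR-126-3p. Over all miRNAs tested, 0% passed the adjusted threshold of 0.1 and 3.91% had an unadjusted p below 0.05. Against the mean of the well-read miRNAs in place of U6, miR-126-3p turned to -0.09 while miR-126-5p was 0.53.

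**Figure D5:**
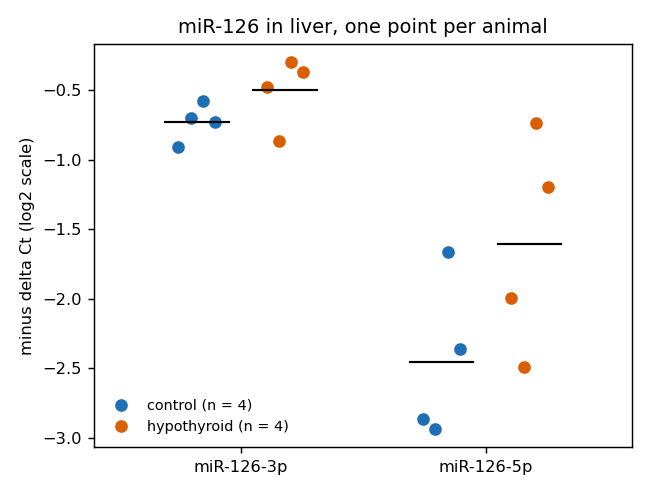
Each point is 1 liver and the y axis is minus delta Ct, log2 abundance relative to U6; blue points are control and orange points hypothyroid animals, and the black bar is the group mean of 4. For miR-126-3p the means are -0.73 and -0.50 and for miR-126-5p they are -2.45 and -1.61, with overlapping groups for both.

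Egfl7, the host gene of miR-126, had a difference of the same sign as the miRNA. On the mRNA arrays it was 2.56 ± 0.30 (SD, n = 5) over the reference in control liver and higher by 0.28 (SE 0.13, limma adjusted p = 0.678) in hypothyroid liver, and without control 616 by 0.15. Neither the gene nor the miRNA passed its threshold. The paper describes the PCR arrays and the mRNA arrays as run on the same mice. The labels do not match the animals of these assays, so no value was paired between them.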

How the data were processed

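The authors hybridised each liver (labelled with Cy5) against Stratagene mouse reference RNA (Cy3) on Agilent 4x44K arrays and deposited the scanner's spot intensity values. For the TLDA the deposited delta Ct values, on a log2 scale, are relative to U6. The genes and lists were chosen with earlier results of these data known. Median spot intensities were corrected by normexp (offset 50), normalised by loess within arrays (span 0.2, control spots weighted 0) and averaged over repeat spots, and spots flagged as outliers were left out. Probes were kept where the liver channel exceeded the 5% trimmed mean plus 3 trimmed SD of the negative control probes in 4 of 5 arrays of a group. limma 3.58.1 (R 4.3.3) was fitted to all 10 arrays with Benjamini-Hochberg adjustment over 32056 probes, in place of the study's permutation Fs test, and to 563 miRNAs read in at least 2 animals of each group. Symbols came from the probes' accessions through RefSeq tables, which named 23374 of 41174 probes. A gene of a list, and each gene compared with Nrp1 probe 1, was represented by its probe brightest in liver. The array design was built on mm8 and no array coordinates are given. Named genes were all member probes, all genes of the VEGF family and angiopoietin lists, the 3 brightest in liver of each other list, both arms of miR-126 and the 5 genes most like Nrp1 probe 1, and genes past an unadjusted p of 0.05 were named after their values were seen. Both fits were tested on simulated data. The number of arrays and animals limits the precision. The deposited raw cycle tables and the authors' table of fold changes and p-values were not used.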

Additional observations from a re-analysis of the deposited data

Results flagged for a closer look

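Dixon's ratio (gap over range) was taken for 32 sets of values, each a probe or miRNA in 1 group. Of these sets, 4 held a sample far from the others, and 2 of the 4 were control 616. That is 12.5%, where chance gives about 5% of independent sets, but these sets share arrays and animals and are not independent. Nrp2 in control liver was highest in control 616 at -0.47 against -1.63 for the nearest (ratio 0.850). Stab2 in control liver was lowest in control 616 at 2.05 against 3.06 (ratio 0.753). Lyve1 probe 1 in control liver was lowest in control 391 at 3.20 against 4.12 (ratio 0.728). Lyve1 probe 2 in hypothyroid liver was lowest in hypothyroid 891 at 0.90 against 1.65 (ratio 0.845).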

How the results depend on the processing

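No probe of the 8 genes other than Nrp1 passed the adjusted threshold under any setting run. The difference of Nrp1 probe 1 was negative in all 20 settings, from -0.97 to -0.39. The 3 probes called over the whole array became 8 without background correction, 5 with signal on all 10 arrays, 1 with Agilent processed signals or median centring, 14 with slide as a random block, 0 with slide as a fixed block, with the dyes as labelled or without the slide of control 832, and 1 to 30 with each array left out in turn (30 without control 616). The 9 of 12 probes of genes other than Nrp1 called against the reference (11 of 14 with Nrp1) became 0 with the dyes as labelled, 11 with processed signals (3 of them lower), 8 with median centring and 10 without control 616. The cause was not tested.

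These differences turned sign. With the dyes as labelled, Nrp1 probe 2 was 0.015, Vegfa probes 2 and 3 -0.053 and -0.091 and Pecam1 0.038, and against the reference Vegfa probes 2 and 3 were 0.088 and -0.0037. With median centring, Pecam1 was 0.12, the Flt1 probes 0.031 and 0.14, Lyve1 probe 1 0.035 and Vegfa probe 1 0.18, and Vegfa probe 3 against the reference -0.33. With processed signals, Vegfa probe 3 was -0.016 (-0.15 against the reference) and Lyve1 probe 1 0.059. Without the slide of control 832, Vegfa probes 2 and 3 were -0.0027 and -0.047 and Pecam1 0.00069. With slide as a fixed block Tek was -0.090 and Vegfa probe 2 -0.0088, without background correction Tek was -0.011, and with a loess span of 0.3 Vegfa probe 3 against the reference was -0.0076. With arrays left out in turn the ranges were -0.084 to 0.093 for Tek, -0.13 to 0.021 for Pecam1, -0.11 to 0.026 for Flt1 probe 2, -0.072 to 0.052, -0.047 to 0.13 and -0.054 to 0.10 for Vegfa probes 1, 2 and 3, and -0.017 to 0.073 for Vegfa probe 3 against the reference. miR-126-3p was -0.089 with the mean of miRNAs as reference.

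Animal numbers did not pair the TLDA samples (correlations of same-numbered animals -0.23 to 0.11, none best with its own number). With the replicate block, miR-126-3p was 0.23 and miR-126-5p 0.85 with limma adjusted p of 0.749 for both, and 0 miRNAs passed, as in the main fit.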
